A study of Mus musculus with 8 samples.

Results

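The core circadian clock loop was followed in mouse liver through 10 genes: the activators Arntl (Bmal1), Clock and Npas2, the repressors Per1, Per2, Per3, Cry1 and Cry2, and the nuclear receptor repressors Nr1d1 and Nr1d2 (REV-ERB alpha and beta). They were taken by gene symbol, as a set drawn up with earlier results of these data known, and all 10 of them were on the array among 16593 named genes, with 17 of its 25697 probes. Liver RNA of each mouse was hybridised to 1 Illumina bead array, in 4 wild type males and 4 males carrying a knockout of Bgn, which encodes the matrix proteoglycan biglycan. All mice were 13 weeks old and of C57BL/6 strain background, and the design text describes a regular light and dark cycle with food freely available. The labels do not give the hour at which livers were taken, which part of Bgn was removed, or whether mice of both genotypes were littermates.

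Arntl protein pairs with Clock or its relative Npas2 and switches on genes with E-box elements, among them Per, Cry and Nr1d genes. Per and Cry proteins return to block that pair, and Nr1d1 and Nr1d2 repress Arntl through ROR elements, which closes a second loop. In mouse liver these transcripts cycle over the day, with Arntl and Nr1d1 peaking at opposite times, so that the level of a clock gene in one liver depends on when it was taken.

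E-box and ROR elements, through which these genes are known to act on each other, were looked for in RefSeq promoters. So was the D-box, which factors outside the 10 genes bind. The promoters (GRCm38.p6, from 250 bases before to 50 bases after each annotated start) held 13 entries for 9 of the 10 genes, Per2 being the gene not matched. The Arntl and Nr1d1 promoters are shown because these are the genes whose transcripts changed, and capitals mark a ROR element (AGGTCA preceded by A or T) in Arntl and a variant E-box (CACGTT, which reads AACGTG on the opposite strand) in Nr1d1. The Arntl entry lies at chr7:113207261-113207560 on the plus strand and the Nr1d1 entry at chr11:98775328-98775627 on the minus strand.
Arntl: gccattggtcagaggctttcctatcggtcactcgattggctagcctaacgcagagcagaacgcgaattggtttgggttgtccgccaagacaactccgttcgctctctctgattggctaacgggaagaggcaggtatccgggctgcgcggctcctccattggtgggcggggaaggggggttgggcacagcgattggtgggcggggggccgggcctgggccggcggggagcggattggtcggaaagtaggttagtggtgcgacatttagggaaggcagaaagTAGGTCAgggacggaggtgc
Nr1d1: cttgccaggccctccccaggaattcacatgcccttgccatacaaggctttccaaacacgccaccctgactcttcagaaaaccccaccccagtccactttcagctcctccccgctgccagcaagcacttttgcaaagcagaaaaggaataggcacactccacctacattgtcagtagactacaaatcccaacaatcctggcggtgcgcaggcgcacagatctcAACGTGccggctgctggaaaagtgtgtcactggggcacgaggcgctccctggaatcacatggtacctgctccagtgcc
The Arntl element begins 30 bases after its start and the Nr1d1 element 28 bases before its start, and the entry for the other Arntl start ends before the Arntl element. Shorter windows are shown for Per1 (chr11:69098771-69098800, plus strand) and Cry1 (chr10:85185097-85185145, minus strand), which held the E-box CACGTG, and for Per3 (chr4:151044804-151044882, minus strand), which held 2 copies of the D-box TTATGTAA, the element bound by Dbp and Tef.
Per1: agcacccaagtcCACGTGcagggatgtgtg
Cry1: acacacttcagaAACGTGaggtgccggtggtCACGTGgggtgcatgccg
Per3: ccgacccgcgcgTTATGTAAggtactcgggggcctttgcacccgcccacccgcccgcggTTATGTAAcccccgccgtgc
Searched on both strands, the E-box CACGTG was in 7.15% of all 32851 promoter entries, the variant E-box in 4.68%, the D-box (TTATGTAA or TTACGTAA) in 1.06% and the ROR element in 7.16%. None of these motifs overlapped another in the entries shown, and a match is a description of the sequence, not of binding. Cry1, where the capitals AACGTG mark it, and Cry2 held the variant E-box as well. Clock, Npas2 and Nr1d2 held none of the 4 motifs in these windows, and neither did the entry for the other Per1 start.

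Whether the clock loop differed between the genotypes was asked with a linear model over all probes that were above background (detection p under 0.05) on at least 4 of the 8 arrays. Values below are log2 intensities after background correction and quantile normalization unless they are called deposited signals. Of the 17 clock probes, 10 probes of 7 genes passed that filter, and each of these 10 was detected on all 8 arrays, so none entered through 1 genotype alone. In knockout livers Arntl rose and Nr1d1 fell, which were 2 of the 10 clock probes, beside 1.10% of the 11494 probes tested (limma, Benjamini-Hochberg adjusted p under 0.05). Arntl was 1 probe higher, beside 0.383% of all tested probes, and Nr1d1 1 probe lower, beside 0.722%. Before adjustment 7 of the 10 clock probes had a p under 0.05, 1 higher and 6 lower, beside 13.3% of all tested probes. Probes of the same gene are not independent of each other. By the brightest probe of each gene, 1 of the 7 genes was higher and 4 were lower, beside 6.16% and 7.37% of all 8105 tested genes. The 2 genotypes did not overlap for 4 of the 10 clock probes, beside 8.07% of all tested probes, with 1 higher (beside 3.66%) and 3 lower (beside 4.40%).

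**Figure D1:**
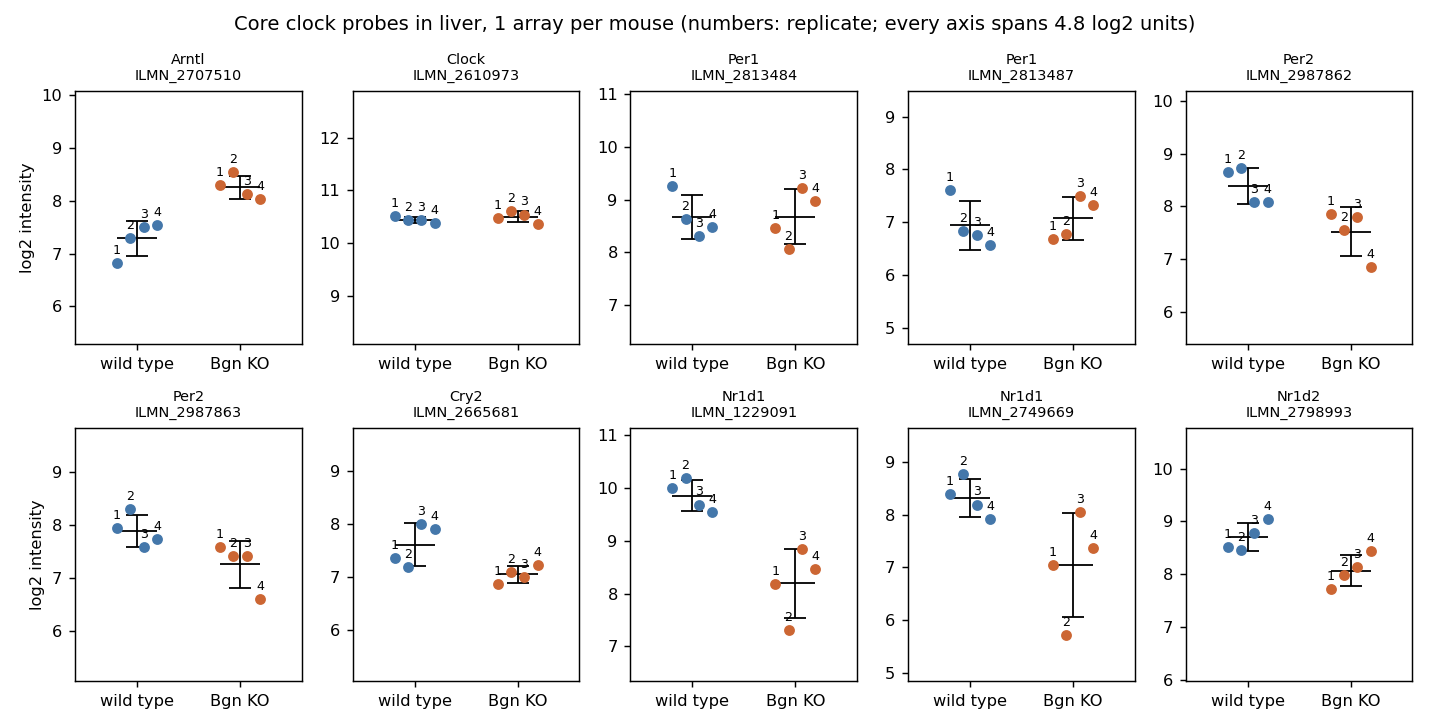
Log2 intensity (vertical axis, 4.8 log2 units in every panel) of the 10 tested clock probes on each array, by genotype, with the replicate number above each point and the group mean ± SD in black (n = 4 each). Arntl is higher and the brighter Nr1d1 probe lower on all 4 knockout arrays, while Clock and Per1 overlap.

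Arntl, the activator without which the loop does not run, had deposited signals of 209, 255, 300 and 337 on wild type replicates 1 to 4 and 517, 578, 398 and 325 on knockout replicates 1 to 4. Normalized, these were log2 intensities of 6.82, 7.30, 7.50 and 7.55 in wild type and 8.30, 8.54, 8.13 and 8.04 in the knockout. Every knockout array lay above every wild type array after normalization, whereas in deposited signal knockout replicate 4 lay below wild type replicate 4. The mean moved from 7.29 ± 0.33 to 8.25 ± 0.22 (SD, n = 4 each), a rise of 0.96 on the log2 scale (SE 0.19, 95% interval 0.55 to 1.37, 1.95-fold; limma adjusted p = 0.0306). Without background correction the change was 0.61 (limma adjusted p = 0.0276). Leaving out any 1 of wild type replicates 1 to 3 or knockout replicates 1 to 3 ended the call (limma adjusted p up to 0.133), with changes of 0.81 to 1.05 over all 8 such fits.

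Its partner Clock, a histone acetyltransferase as well as a transcription factor, did not pass. Its bright probe read 10.51, 10.44, 10.44 and 10.38 in wild type and 10.48, 10.60, 10.54 and 10.36 in the knockout. The groups overlapped, and the difference was 0.05 (SE 0.10, 95% interval -0.16 to 0.27; limma adjusted p = 0.862), an interval that leaves out a rise as large as that of Arntl. The other 2 Clock probes were near background, 1 of them detected on 1 array of each genotype and the other on 0 arrays. Npas2, which can take the place of Clock, was not above background on any array (lowest detection p 0.0702). Its deposited signal was 130 to 143 in wild type and 134 to 166 in the knockout, and its corrected values, 4.53 to 4.61 against 4.67 to 5.06, lay at background level in both genotypes, so that no fold is given.

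Nr1d1 fell most among the tested members. The deposited signal of its brighter probe was 971, 1144, 945 and 945 in wild type replicates 1 to 4 and 486, 322, 579 and 395 in knockout replicates 1 to 4. The log2 intensities were 9.999, 10.18, 9.69 and 9.54 in wild type and 8.17, 7.30, 8.84 and 8.46 in the knockout. All 4 knockout arrays lay below all wild type arrays on both scales, with knockout replicate 2 lowest. The mean went from 9.85 ± 0.29 to 8.19 ± 0.65 (SD, n = 4 each), a fall to 31.6% of the wild type level (log2 change -1.66, SE 0.30, 95% interval -2.33 to -0.99; limma adjusted p = 0.0325). Leaving out any 1 wild type array, or knockout replicate 1 or 4, ended the call (limma adjusted p up to 0.0991), with changes of -1.87 to -1.37 over all 8 such fits. The second Nr1d1 probe read 8.40, 8.78, 8.19 and 7.91 in wild type and 7.05, 5.72, 8.05 and 7.37 in the knockout. It did not pass (log2 change -1.27, SE 0.45; limma adjusted p = 0.282, and -0.74 without background correction), and knockout replicate 3 reached into the wild type range. Both probes were lowest on knockout replicate 2 and highest on wild type replicate 2, with a correlation of 0.99 over the 8 arrays once group means were removed. The mean of both probes gave -1.47 and did not pass (limma adjusted p = 0.141).

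Nr1d2, the second REV-ERB receptor, read 8.52, 8.46, 8.78 and 9.04 in wild type and 7.72, 7.99, 8.13 and 8.43 in the knockout. The genotypes did not overlap, by a gap of 0.033 between the highest knockout and the lowest wild type array. The difference of -0.63 (SE 0.18, 95% interval -1.03 to -0.24) did not pass over all probes (limma adjusted p = 0.145), and its second probe was detected on 0 arrays.

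Of the Per genes, Per1, which responds fast to light and hormones, read 9.26, 8.63, 8.31 and 8.48 in wild type and 8.46, 8.06, 9.21 and 8.98 in the knockout on its brighter probe. The groups overlapped on both probes, with differences of 0.0082 (SE 0.27, 95% interval -0.60 to 0.61) and 0.13 (SE 0.26, -0.43 to 0.69). Limma adjusted p was 0.993 and 0.867.

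Per2, a period protein that mice need to keep their rhythm in constant darkness, read 8.65, 8.73, 8.09 and 8.09 in wild type and 7.86, 7.56, 7.80 and 6.85 in the knockout on its brighter probe. Those ranges did not overlap, and the difference was -0.87 (SE 0.24, 95% interval -1.39 to -0.35; limma adjusted p = 0.129). A second probe gave -0.64 (SE 0.23; limma adjusted p = 0.259) with 1 knockout array reaching the lowest wild type value by 0.0018, and the third was detected on 0 arrays. Without knockout replicate 4, the lowest array on both, the differences were -0.65 and -0.42 (limma adjusted p = 0.188 and 0.371). Without background correction the first was -0.57 and the second -0.38. Per3 was not above background on any array, with deposited signals of 137 to 158.

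Of the cryptochromes, the strongest repressors of the loop, Cry2 read 7.35, 7.18, 7.996 and 7.91 in wild type and 6.86, 7.08, 7.002 and 7.23 in the knockout. The wild type arrays fell apart into a lower and a higher pair, knockout replicate 4 overlapped with the lower one, and the difference of -0.57 (SE 0.20, 95% interval -1.01 to -0.13) did not pass (limma adjusted p = 0.255; -0.33 without background correction). Cry1 was not above background on any array (deposited signal 118 to 142). Its transcripts are known to be present in mouse liver, so the probe gives no measure of Cry1 here.

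**Figure D2:**
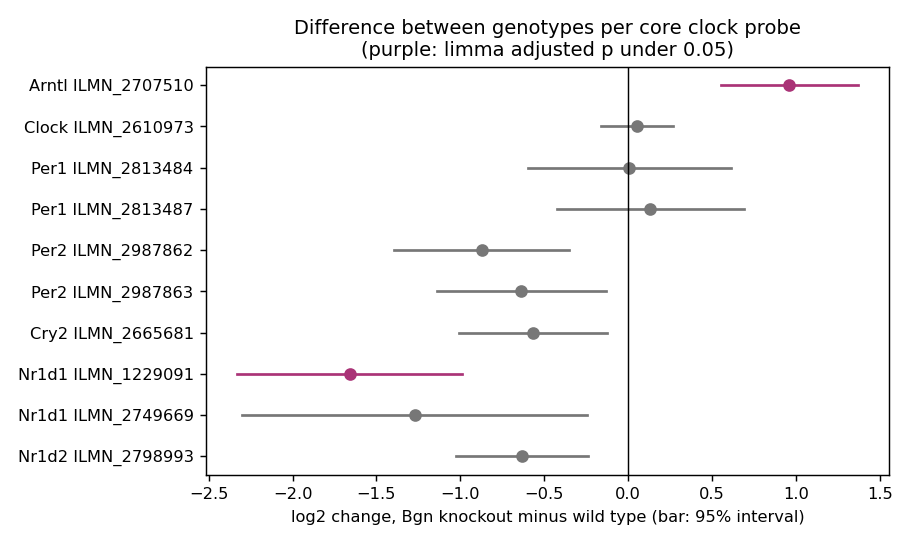
Log2 change from wild type to Bgn knockout (horizontal axis) of each tested clock probe, with its 95% interval from limma and the 2 probes past the adjusted threshold in purple. Arntl lies at 0.96 and the brighter Nr1d1 probe at -1.66, with Clock and both Per1 probes at 0.0082 to 0.13.

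Taking for each gene its brightest tested probe, the 7 measured members had a median log2 change of -0.57 and a median size of change of 0.63, beside -0.0030 and 0.16 over the 8105 tested genes. The spread between mice differed by gene. The SD of the brighter Nr1d1 probe in the knockout was 2.24 times that in wild type and that of Cry2 was 0.388 times, with no test of these ratios. The 10 tested genes nearest to Arntl on chromosome 7 had log2 changes of -0.11 to 0.52, and those nearest to Nr1d1 on chromosome 11 had -0.24 to 0.33. In both neighbourhoods limma called 0 genes, and before adjustment 1 gene was under 0.05.

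Within genotypes, Arntl and Nr1d1 tended to opposite sides. With group means removed, Pearson's r was -0.67 (exact permutation over all arrangements of arrays within groups, two-sided p = 0.0417) and Spearman's rho was -0.79 (p = 0.0451). Adjusted over the 3 pairs that could be computed, the permutation p was 0.125 for r and 0.135 for rho, so the relation did not pass. Without the 2 arrays farthest from the median of Arntl, wild type replicate 1 and knockout replicate 2, r was -0.84. In all such runs without 2 arrays, the group means removed were those over all 8 arrays and were not taken anew. Arntl with Nr1d2 gave 0.13 (exact permutation p = 0.767, adjusted 0.804; rho 0.048) and Per1 with Per2 gave 0.13 (exact permutation p = 0.804, adjusted 0.804; rho 0.12), and both turned sign without their 2 farthest arrays. Per1, whose genotype means were alike, had r of -0.91 with Arntl and 0.82 with Nr1d1 over the 8 arrays with group means removed. These 2 values were picked out after they were seen and are given as a description, with no test.

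**Figure D3:**
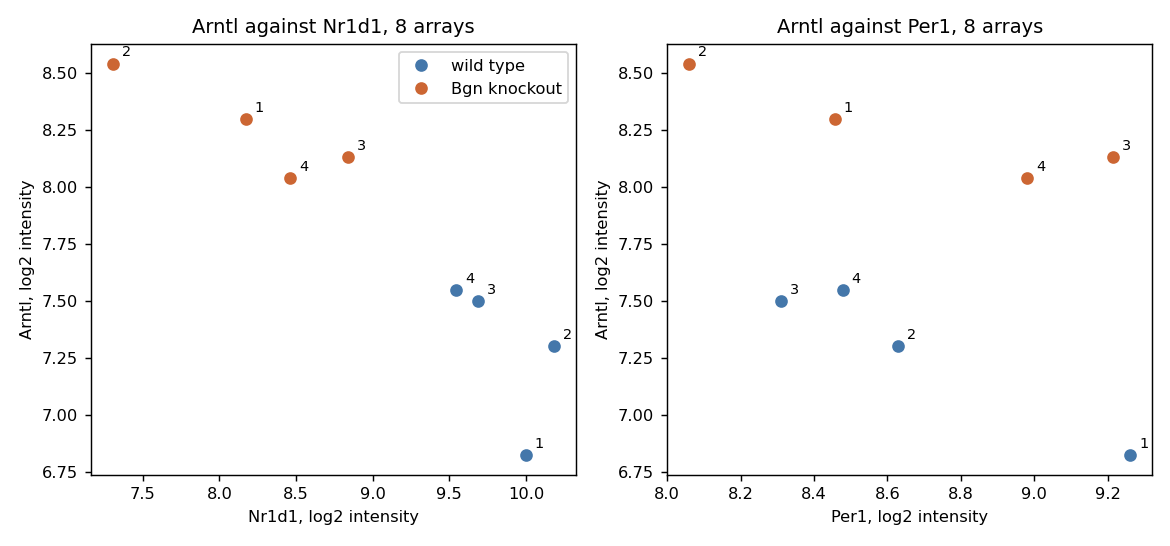
Log2 intensity of Arntl (vertical axis) against Nr1d1 (left) and Per1 (right) on each of the 8 arrays, coloured by genotype and numbered by replicate, brightest probe of each gene. Knockout and wild type arrays separate along both axes for Nr1d1 and only along the Arntl axis for Per1.

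The genes most like Arntl over the 8 arrays were H3c14, Gmcl1, Caprin1, Serpina11 and Metrn, with Pearson's r of 0.96, 0.95, 0.94, 0.94 and 0.94. Of these, Serpina11 was past the threshold between genotypes (log2 change 2.47, SE 0.14; limma adjusted p = 8.01e-07). With group means removed the genes most like Arntl were Zfpm2, Vsig2, Irgq, Cds2 and Gata2 (0.99, 0.99, 0.98, 0.98 and 0.97). The genes most like Nr1d1 were Tut1, Hs6st1, Zfp654, Cyp2a5 and Kctd21 (0.97, 0.97, 0.96, 0.95 and 0.95) and, with group means removed, Shq1, Tmem170, Zfand2b, Rgs19 and M6pr (0.99, 0.97, 0.96, 0.96 and 0.94). None of these 5-gene sets shared a gene with another, and each is the top of a search over 8105 genes on 8 arrays.

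Array brightness and muscle transcripts moved with Arntl and Nr1d1 inside the genotypes. Skeletal muscle markers, all 14 of the list being on the array, summed to 56084 on wild type replicate 4, 20471 and 81961 on knockout replicates 1 and 2, and 1992 to 2168 elsewhere (deposited signal). These were the wild type array and the 2 knockout arrays with the highest Arntl and the lowest Nr1d1 of their genotype. The median deposited signal was 141, 145, 151 and 157 on wild type replicates 1 to 4 and 164, 162, 151 and 142 on knockout replicates 1 to 4, and Arntl followed it in wild type. Stellate cell markers, all 9 of the list being on the array, summed to 9178, 10610, 11329 and 15122 in wild type and 14149, 13831, 11928 and 9855 in the knockout, in the order of the array medians. Most of each sum came from Dcn and Reln, and Des is on the muscle list too. The order is that of the sum, since single markers such as Lrat in wild type and Rgs5 in the knockout did not keep it. The part of stellate markers in the result was not tested. On the arrays without muscle signal Arntl was 8.13 and 8.04 in the knockout against 6.82 to 7.50 in wild type. Nr1d1 was 8.84 and 8.46 there against 9.69 to 10.18. For both probes the genotypes did not overlap over all 8 arrays, so any subset of the arrays must keep this order. These values are therefore a description and not a check on muscle signal. Both red cell markers on the array, Hba-a1 and Alas2, were detected on all 8 arrays and summed to 23509 to 29753 in wild type. In the knockout they summed to 24070 and 23453 on replicates 1 and 2 and to 13208 and 17897 on replicates 3 and 4, the 2 knockout arrays without muscle signal, and their part in the result was not tested.

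Left with those 5 arrays, the differences were 0.88 for Arntl (limma adjusted p = 0.417) and -1.33 for Nr1d1 (0.0757), and neither passed. Left with 6 arrays, without wild type replicate 4 and knockout replicate 2, they were 0.95 (limma adjusted p = 0.13) and -1.48 (0.0159). With the log2 of summed muscle signal as a covariate they were 0.89 (limma adjusted p = 0.0333) and -1.50 (0.00269), and with the log2 of the array median 0.79 (limma adjusted p = 0.0581) and -1.41 (0.0296), both covariates chosen after the data were seen. Of the 8 hepatocyte markers, 6 were detected on all 8 arrays. They ran from Alb at deposited signals of 215 to 417 up to Apoa1 at 30333 to 35651. Fgb (137 to 172) and Tat (136 to 167) were detected on 2 arrays each. The dim probes of Alb, Fgb and Tat, all markers of this cell type, are not taken as a measure of those transcripts. The hepatocyte list summed to 101121 to 105498 in wild type and 91252 to 102010 in the knockout. Most of each sum came from Apoa1, Ttr and Cps1, so it says little about the other markers of the list. In such bulk RNA, fewer cells of a type and less RNA per cell cannot be told apart. The label check was Bgn itself, at 3660 ± 918 in wild type and 190 ± 15.3 in knockout deposited signal (SD, n = 4 each).

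Other clock genes were read from 2 lists. The modifiers are a mixed list of enzymes and transcription regulators that act on the loop or its proteins, some of them opposing it. Of these, 50 were on the array and 41 tested, and 0 passed in limma in either direction, beside 1.20% of all 8105 genes. Before adjustment 5 of the 41 were lower and 1 was higher at a p under 0.05, beside 7.37% and 6.16% of all genes, and the median log2 change was 0.0042. The smallest p-values belonged to the coactivator Ppargc1a (-0.78, SE 0.27; limma adjusted p = 0.242), to Ddb1, a ubiquitin ligase subunit (-0.40, SE 0.14; 0.256), and to the deubiquitinase Usp2, which is also on the list of outputs (-1.40, SE 0.47; 0.267). Usp2 was low on 3 knockout arrays at 6.81, 7.72 and 7.82, while knockout replicate 4 at 9.21 lay within the wild type range of 8.86 to 9.69.

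The outputs are a list of genes taken as clock outputs, and whether the loop drives each of them in these livers was not tested. Of these, 38 were on the array and 32 tested, with 2 lower and 0 higher in limma, beside 0.802% and 0.395% of all genes. These 2 were Dbp and Tef, transcription factors that bind the D-box. Dbp read 10.98, 11.19, 11.09 and 10.27 in wild type and 7.16, 7.15, 7.59 and 7.49 in the knockout. Tef read 9.86, 9.80, 10.13 and 10.25 against 8.36, 8.65, 8.71 and 9.09. Dbp fell by 3.53 (SE 0.20; limma adjusted p = 8.01e-07) and Tef fell by 1.31 (SE 0.16; limma adjusted p = 0.00177) on the log2 scale, with no overlap of genotypes. The median log2 change of the 32 was 0.052, and 4 were higher and 6 lower at an unadjusted p under 0.05, beside 6.16% and 7.37% of all genes. Like Nr1d1, both are known E-box targets of Arntl and Clock, and unlike it both passed without each array in turn.

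**Figure D4:**
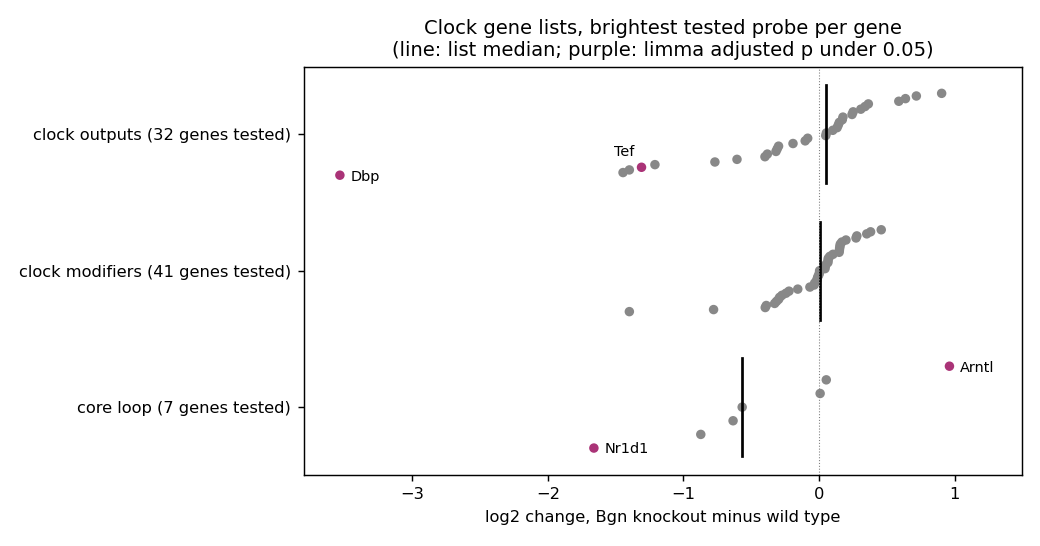
Log2 change from wild type to Bgn knockout (horizontal axis) for the brightest tested probe of each gene in the core loop (7 genes), the clock modifiers (41) and the clock outputs (32), with the list median as a black line and genes past the adjusted threshold in purple. The core loop median lies at -0.57, and the medians of the other lists lie at 0.0042 and 0.052.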

How the data were processed

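Each probe has, for each array, a deposited average intensity (linear, lowest value 109) and a detection p-value, per the file headers. The authors also deposited a table of normalized intensity, used as an alternative. The steps behind both tables are not given in the sources used here. Tools named in the submitters' processing notes are lumi 2.10.0 and R 2.15.0. RNA was extracted with a QIAGEN kit and labelled with biotin, per the labels.

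The unnormalized table was processed with limma 3.58.1 in R 4.3.3: neqc (normexp background from the detection p-values, offset 16, quantile normalization, log2), then lmFit and eBayes with trend and robust variance, knockout against wild type without covariates. A probe was tested if detected (p under 0.05) on at least 4 of 8 arrays, with Benjamini-Hochberg adjustment over the 11494 tested probes. Median deposited signals were 141 to 164 and 11352 to 11910 probes were detected per array. Precision is limited by having 8 arrays. The platform table named 1 gene for 23978 probes and none for 1719, and RefSeq tables of GRCm38.p6 gave neighbours and promoters. An exact permutation of log2 deposited signals over 70 assignments, computed for all 17 clock probes and not adjusted, gave p = 0.0286, the smallest possible, for both Nr1d1 probes and 0.0571 for Arntl.

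The members and lists were chosen with earlier results of these data known. Named genes are all members, changed genes of the lists (otherwise up to 3 by smallest p), and the 5 genes most like Arntl and Nr1d1 by each measure. The variant E-box was added after the other motifs had been searched. Of 6 planned pair correlations, 3 were not run because Npas2, Per3 and Cry1 were not tested. The fit was tested on simulated data. The same replicate number was not treated as pairing mice in the main fit. Deviations from the group means correlated at 0.057, -0.059, -0.30 and -0.12 for numbers 1 to 4. These values cannot settle whether mice of the same number shared a litter or a time of collection. Figures were drawn with matplotlib 3.10.9.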

Additional observations from a re-analysis of the deposited data

Results flagged for a closer look

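With groups of 4 arrays, an array was picked out where its gap to the nearest of the others, divided by the range of its group, exceeded Dixon's 95% critical value. Chance gives about 1 in 20 groups. Of 38 groups checked for the 17 clock probes, Dbp and Tef, 2 met this, with 1.9 to be had by chance. The dimmer tested Per2 probe was 6.59 on Bgn knockout replicate 4 (others 7.42 to 7.59), as log2 intensity, and the brighter Per2 probe was also lowest there. The Per3 probe was 4.56 on Bgn knockout replicate 3 (others 4.79), at background level on every array.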

How the results depend on the processing

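Arntl stayed above 0 and the brighter Nr1d1 probe below 0 in every alternative run, at 0.61 to 1.10 and -1.91 to -1.31 on the log2 scale. Arntl passed in 11 of 23 alternatives (limma adjusted p 0.00529 to 0.417) and Nr1d1 in 13 (0.00269 to 0.141). The alternatives include the mean over the tested probes of a gene. Arntl had only 1 tested probe, so for it that run repeats the main change (limma adjusted p = 0.0235) and is no separate check. Leaving out 1 array gave 0 to 1 changed clock probes in place of 2, and 59 to 121 changed probes in all in place of 127. Of these fits, Arntl passed only without wild type replicate 4 or knockout replicate 4, and Nr1d1 only without knockout replicate 2 or 3 (limma adjusted p up to 0.133 and 0.0991 without the others). The changed clock probes numbered 1 with median scaling (Arntl at limma adjusted p = 0.0505), with no filter on dim probes (Nr1d1 at 0.0531), with eBayes without trend and robust variance (Arntl at 0.0538), without the 2 arrays richest in muscle transcripts and with the array median as a covariate. They numbered 0 without the 3 arrays with muscle transcripts and 0 with the replicate block. All changed probes numbered 197 with array weights, 64 with the replicate block, 48 without the 2 and 25 without the 3 muscle-rich arrays, and changed list genes 1 without the latter, where fewer arrays were fitted and Tef had a limma adjusted p of 0.127. Otherwise the cause was not tested.

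The replicate block moved no log2 change, and with it Arntl and Nr1d1 had limma adjusted p of 0.12 and 0.124. Median scaling moved the median of all probes to 0.040. Signs turned for Clock (-0.0039 and -0.012 without the 2 and 3 muscle-rich arrays) and for Per1 (-0.22 and -0.087 on its 2 probes with array weights, and -0.17 to 0.22 and -0.011 to 0.36 without single arrays), all far from the threshold. Without the 2 farthest arrays, and with the group means of all arrays kept, r turned to -0.030 for Arntl with Nr1d2 and to -0.41 for Per1 with Per2. A chip as a block was not run, since the columns name none. Members at background (Npas2, Per3, Cry1) cannot be compared on this array.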
